A study of Mus musculus with 24 samples.

Results

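The members of the mitochondrial carrier family Slc25 were described across 6 groups of mouse oocytes profiled by RNA sequencing. Members were the rows of the deposited count table whose gene symbol is Slc25a followed by a number, and there were 47 of them among 55401 genes. Per the study's design text, which writes embryos for the oocytes, 5 went into each RNA reaction, and each group had 2 libraries. The groups were oocytes with overexpression of the histone deacetylase gene Hdac3 and exposure to polystyrene microplastics (PSMPs & OE-Hdac3), oocytes exposed in culture (in vitro PSMPs), oocytes exposed in the animal (in vivo PSMPs) and oocytes given SAHA, an inhibitor of histone deacetylases also known as vorinostat (SAHA). The controls were oocytes labelled as control in culture (con-in vitro) and as control with no further label (con). The study calls its exposure low-dose, and the labels give neither strain, age, amount nor duration. Nor do they say which control belongs to SAHA or by which route PSMPs & OE-Hdac3 oocytes were exposed, so each of these groups was set against both candidates. Whether a group's libraries stem from different animals or cultures is not in the labels, so the p-values reflect only how far these libraries vary, which may be technical.

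SLC25 proteins sit mostly in the inner mitochondrial membrane, where each moves a metabolite, nucleotide, cofactor or ion that the membrane would otherwise hold back. Many exchange their substrates in pairs, and those of the inner membrane are encoded in the nucleus, made in the cytosol and inserted through the TIM22 complex. The mouse oocyte relies on its mitochondria for ATP during meiotic maturation, and the ADP/ATP carriers, the phosphate carrier and the carriers of the malate-aspartate shuttle take part in that supply.

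Total counts ran from 6.22 M to 35.6 M per deposited column. Counting noise was larger than the difference between the in vivo PSMPs columns (chi-square per degree of freedom 0.444, against 16.5 to 384 within the other groups), so their rounded mean was used as 1 library and the group counted as 1 sample. Hdac3, the overexpressed gene, stood at 336 and 228 CPM (counts relative to library size, scaled by TMM factors) in PSMPs & OE-Hdac3 and at 7.17 to 37.4 CPM in the other libraries. All 12 oocyte markers were detected in every library, with a summed level of 10120.2 to 11599 CPM in con-in vitro and 20069.8 to 55337 CPM elsewhere. The summed level of 20 cumulus and granulosa cell markers was 167 CPM in in vivo PSMPs, where 4 were at 0. It was 35.8 to 101 CPM in the other libraries, where 14 or 15 were at 0 in each control library and 4 to 9 in the rest. The 7 leukocyte and erythrocyte markers summed to 0 to 11.7 CPM.

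Of the 47 members, 27 to 42 had a count in each library, and 4 (Slc25a27, Slc25a41, Slc25a43 and Slc25a45) had none in any. Con-in vitro had the fewest, with 31 and 27 members detected, followed by con with 32 and 29, and the other libraries had 34 to 42. Detection over all genes was ordered alike, with 11832 and 11640 genes with a count in con-in vitro, 12316 and 12843 in con and 17722 to 20957 in the other deposited columns. Summed over the family, the level was 1250.3 and 1200.0 CPM in PSMPs & OE-Hdac3, 1609.9 and 1719.6 CPM in in vitro PSMPs, 1799 CPM in in vivo PSMPs, 1893 and 1976 CPM under SAHA, 1602 and 1702 CPM in con-in vitro and 1988 and 1909.7 CPM in con. PSMPs & OE-Hdac3 thus held the lowest sums on this scale. The sum of con-in vitro lay among those of the other groups only through Slc25a36, without which it was 1080.1 and 909 CPM. Scaled by library totals in place of TMM factors, the family sum of con-in vitro was 868 and 973 CPM, and that of PSMPs & OE-Hdac3 (1959 and 1876 CPM) lay within the 1695 to 2289.5 CPM of the other groups. Orders of libraries given below for single members are on the TMM scale and can differ by library totals. All levels are relative to the RNA of a library, so fewer transcripts of a gene and more RNA from the rest of the oocyte cannot be told apart.

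**Figure D1:**
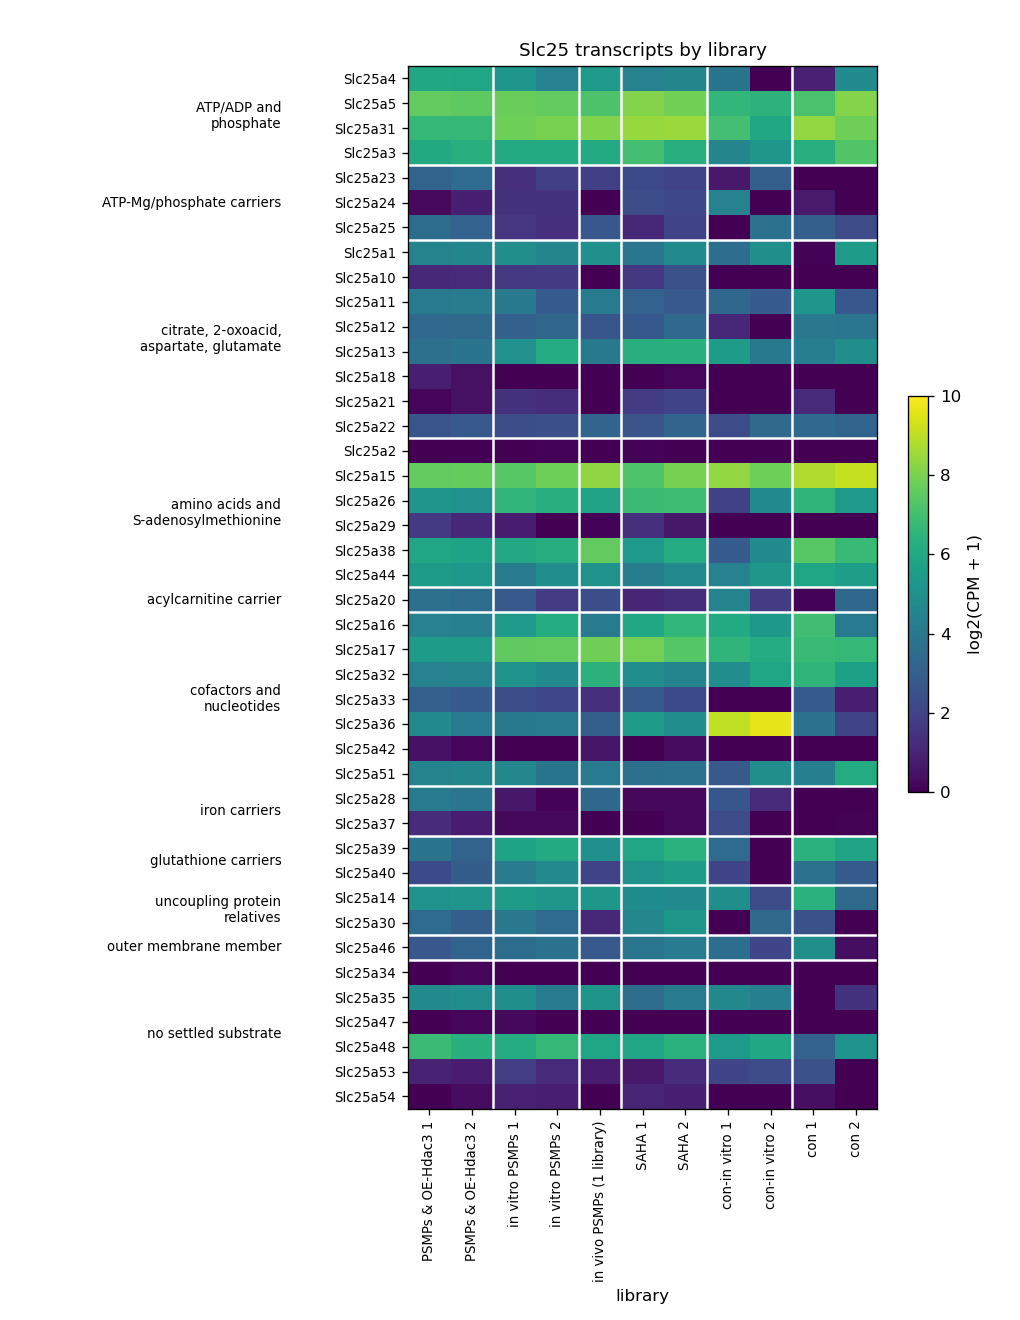
Level of 42 of the Slc25 members with a count in any library, as log2(CPM + 1), with rows grouped by transported substrate and 1 column per library (in vivo PSMPs as 1 library). Slc25a5, Slc25a31 and Slc25a15 are bright in every column, Slc25a36 is bright only in con-in vitro, and dark cells that differ between replicates are mostly in con-in vitro and con.

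**Figure D2:**
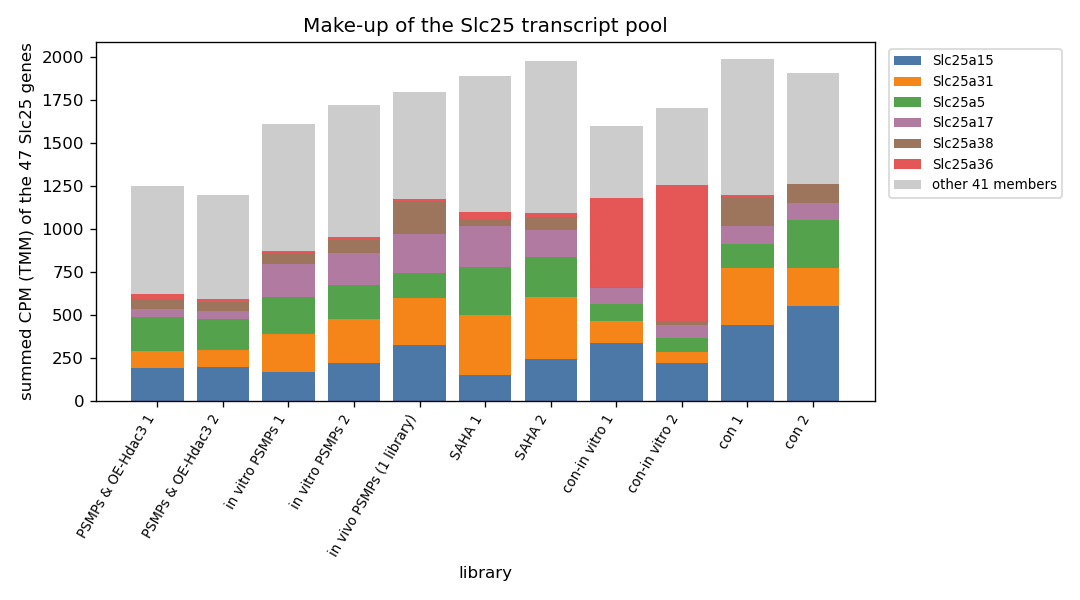
Summed CPM (TMM) of the 47 Slc25 genes in each library, stacked with 6 abundant members named and the other 41 in grey. Slc25a36 makes up 32.6% and 46.6% of the summed CPM in con-in vitro, against 0.163% to 2.27% in each other library. CPM is not divided by gene length here, so these are shares of reads and not of transcripts. Slc25a36, at 9594 bases, is the longest member.

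Single genes were ranked against each other only per kilobase of the deposited gene length, while the family sums above were not divided by length. Averaged over the 6 group means, Slc25a5 (ANT2, the ADP/ATP carrier of dividing cells) was highest at 111 CPM per kilobase, followed by Slc25a31 (ANT4, the ADP/ATP carrier of germ cells) at 105 CPM per kilobase. Slc25a15 (the ornithine carrier ORC1) stood at 50.0, Slc25a17 (a peroxisomal carrier of coenzyme A, FAD and NAD) at 49.4 and Slc25a38 (the mitochondrial glycine importer used in heme synthesis) at 32.4 CPM per kilobase. Slc25a48 (18.8), Slc25a39 (15.1), Slc25a14 (14.4), Slc25a3 (13.7) and Slc25a36 (12.95 CPM per kilobase) completed the first 10. The order was not fixed: Slc25a5 ranked 1 or 2 in every group, while Slc25a36 ranked 1 in con-in vitro, at 68.5 CPM per kilobase, and 20 to 26 in the other groups. Slc25a31 exceeded Slc25a5 per kilobase in in vivo PSMPs (129 for Slc25a31 and 88.5 for Slc25a5), SAHA (166 and 155) and con (130 and 127). Slc25a31 was the lower of the pair in PSMPs & OE-Hdac3 (46.6 for Slc25a31 and 114 for Slc25a5), in vitro PSMPs (112 and 125) and con-in vitro (44.6 and 56.0).

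Replicates differed more in the controls than in the other groups. Among the 39 members that passed the low-count filter, the median absolute log2 difference between replicates of CPM + 1 was 0.17 in PSMPs & OE-Hdac3, 0.27 in in vitro PSMPs, 0.38 in SAHA, 1.13 in con-in vitro and 0.84 in con. A difference above 4-fold was seen in 12 of 39 members (30.8%) in con-in vitro and in 11 of 39 (28.2%) in con, and in none in the other replicated groups. Over all tested genes those shares were 15.2% in con-in vitro and 18.3% in con. Slc25a1, the citrate carrier, was at 0.0695 and 45.3 CPM in the con replicates, Slc25a4, the ADP/ATP carrier of heart and muscle, at 0.903 and 27.4 CPM, and Slc25a16, a carrier linked to coenzyme A, at 121 and 16.3 CPM. Slc25a46, an outer membrane member that acts in mitochondrial fusion and fission, was at 29.4 and 0.309 CPM there. Each of these 4 con ranges spans the values of at least 1 other group.

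**Figure D3:**
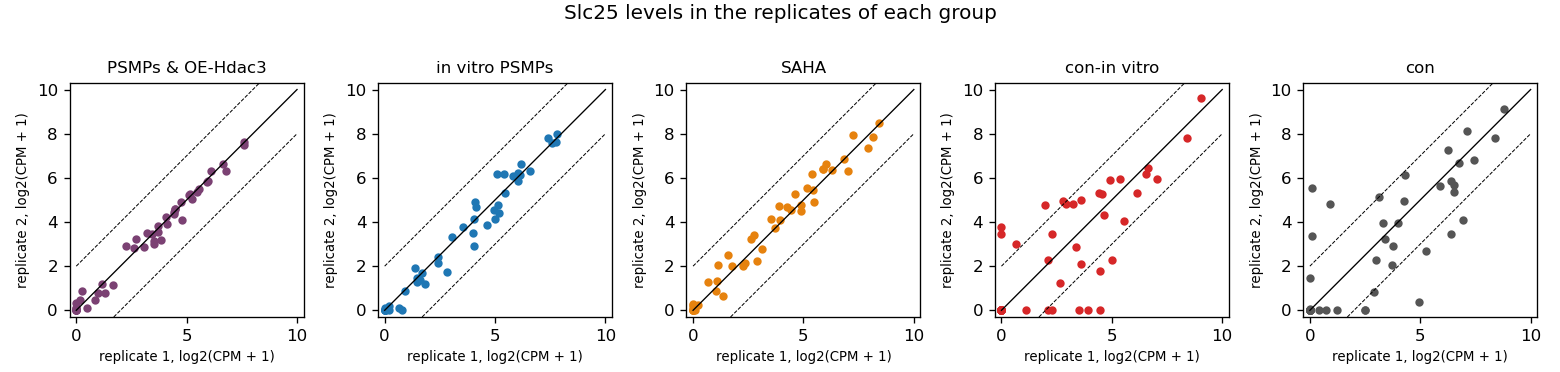
Replicate 2 against replicate 1 for the 47 Slc25 members in each group with 2 libraries, both axes log2(CPM + 1), with the solid line at equality and the dashed lines at 4-fold differences. Points stay inside the dashed lines in PSMPs & OE-Hdac3, in vitro PSMPs and SAHA, and 12 tested members in con-in vitro and 11 in con lie outside them.

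Relative to con-in vitro, in vitro PSMPs oocytes had less Slc25a36 and more Slc25a33, the mitochondrial pyrimidine nucleotide carriers, and more Slc25a17. For Slc25a36 and Slc25a33, con-in vitro stood apart from all other groups, con included. Slc25a36 was at 522 and 793 CPM there, against 3.12 to 42.9 CPM in the other libraries. Slc25a33 was at 0 and 0 CPM there, against 0.773 to 7.29 CPM in the other libraries. With edgeR's quasi-likelihood test and Benjamini-Hochberg adjustment over 16736 genes at a threshold of 0.05, which is used throughout, 2 of 39 tested members were higher and 1 was lower in in vitro PSMPs relative to con-in vitro. Of all tested genes, 8.57% were higher and 6.78% lower. The median log2 fold change of the tested members was 0.76, beside 0.71 over all tested genes. Scaled by library totals, 12 members were higher and 1 lower, and the median over all tested genes was 1.70. With DESeq2's size factors in edgeR the counts were 1 and 1. The number called was 1 without either in vitro PSMPs library, and 6 and 5 without con-in vitro replicate 1 and replicate 2. Of the 12 oocyte markers 6 were higher in the same comparison. Of 15 tested cumulus and granulosa cell markers Gja1 was lower, and Cd68, the only leukocyte or erythrocyte marker tested, was higher, at 2.35 and 3.31 CPM in in vitro PSMPs, against 0 CPM in both con-in vitro libraries. The part of these markers in the result was not tested.

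In the animal, the members that rose were Slc25a28 (mitoferrin 2, a mitochondrial iron importer) and Slc25a23 (a calcium-regulated carrier of ATP-Mg and phosphate), both without a read in con. They were 2 of 39 tested members, none was lower, and 4.59% of all tested genes passed as higher and 0.287% as lower. Over the tested members the median log2 fold change was -0.30, beside 0.25 over all tested genes. With library totals that of the members was 0.07, beside 0.58 over all tested genes. Since in vivo PSMPs was 1 sample, its spread was taken from the other groups. Both calls were lost when the low-count filter was applied after merging, which loosens the filter because it follows the size of the smallest group. No member was called when either deposited in vivo PSMPs column was used alone, and 5 and 8 were called without con replicate 1 and replicate 2.

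In SAHA oocytes the ADP/ATP carriers Slc25a5 and Slc25a31 and the phosphate carrier Slc25a3 rose relative to con-in vitro, as did Slc25a17, Slc25a33, Slc25a40, Slc25a26 and Slc25a10, and Slc25a36 fell. These were 8 of 39 tested members higher and 1 lower, beside 11.7% and 8.14% of all tested genes. Tested members had a median log2 fold change of 1.06, beside 0.66 over all tested genes, and with library totals 12 members were higher and 1 lower, beside an all-gene median of 1.37. The number called was 1 without SAHA replicate 1 and 0 without SAHA replicate 2. Of the 12 oocyte markers 8 were higher here, Cd68 was higher and Gja1 was lower, and their part was not tested.

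Against con, SAHA oocytes had more Slc25a36, Slc25a10, Slc25a29 and Slc25a23 and less Slc25a15. That made 4 of 39 tested members higher and 1 lower, beside 20.2% and 6.75% of all tested genes. The median log2 fold change of the tested members was 0.46, beside 0.59 over all tested genes. Slc25a5, Slc25a31 and Slc25a3, which were higher in SAHA than in con-in vitro, did not pass against con. The number called was 0 without either SAHA library, 14 without con replicate 1 and 10 without con replicate 2. Of 15 tested cumulus and granulosa cell markers 3 were higher in SAHA, of 12 oocyte markers 5 were higher and 1 lower, Cd68 was higher, and their part was not tested.

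In PSMPs & OE-Hdac3, Slc25a17 was lower relative to in vitro PSMPs, which was 1 of 39 tested members, while none was higher. Since the labels do not give the route of exposure of PSMPs & OE-Hdac3, overexpression and route cannot be told apart here. Of all tested genes, 2.98% were lower and 1.85% higher, and with library totals 306 genes were lower and 548 higher in place of 499 and 309. Over the tested members the median log2 fold change was -0.12, beside 0.09 over all tested genes. Slc25a17 lost its call without any 1 of the 4 libraries, which left no member called. Of the 12 oocyte markers 3 were lower here, and their part was not tested. Against in vivo PSMPs no member passed in the edgeR fit to all groups (0% of all tested genes passed in either direction), 6 members had an unadjusted p under 0.05, and DESeq2's Wald test called 2. Some edgeR fits with other settings did call members there, as given below under the dependence on processing. Tested members had a median log2 fold change of 0.32 there, beside 0.23 over all tested genes.

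Of the control groups, con-in vitro had more Slc25a36, Slc25a23 and Slc25a28 than con and less Slc25a12, Slc25a31, Slc25a33, Slc25a38, Slc25a3 and Slc25a5. These were 3 of 39 tested members higher and 6 lower, beside 14.7% and 10.5% of all tested genes. The median log2 fold change of the tested members was -0.37, beside 0 over all tested genes. Library totals gave 3 members higher and 11 lower with an all-gene median of -0.49, and DESeq2's size factors gave 4 and 5. Of the 12 oocyte markers 6 were lower in con-in vitro, of 15 tested cumulus and granulosa cell markers Gja1 was higher and Cyp11a1 lower, and their part was not tested. Fitted to con-in vitro and con alone, only Slc25a36 kept its call, and Slc25a23 was not tested. Leaving out single libraries moved the number called as well, as given below under the dependence on processing. The comparisons of in vitro PSMPs and of SAHA with con-in vitro and that of con-in vitro with con share the con-in vitro libraries, and those with con share the con libraries. The log2 fold change of in vitro PSMPs in culture minus that of in vivo PSMPs in the animal passed for 3 of 39 tested members, Slc25a36, Slc25a23 and Slc25a28, each lower, beside 4.87% of all tested genes higher and 6.4% lower.

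**Figure D4:**
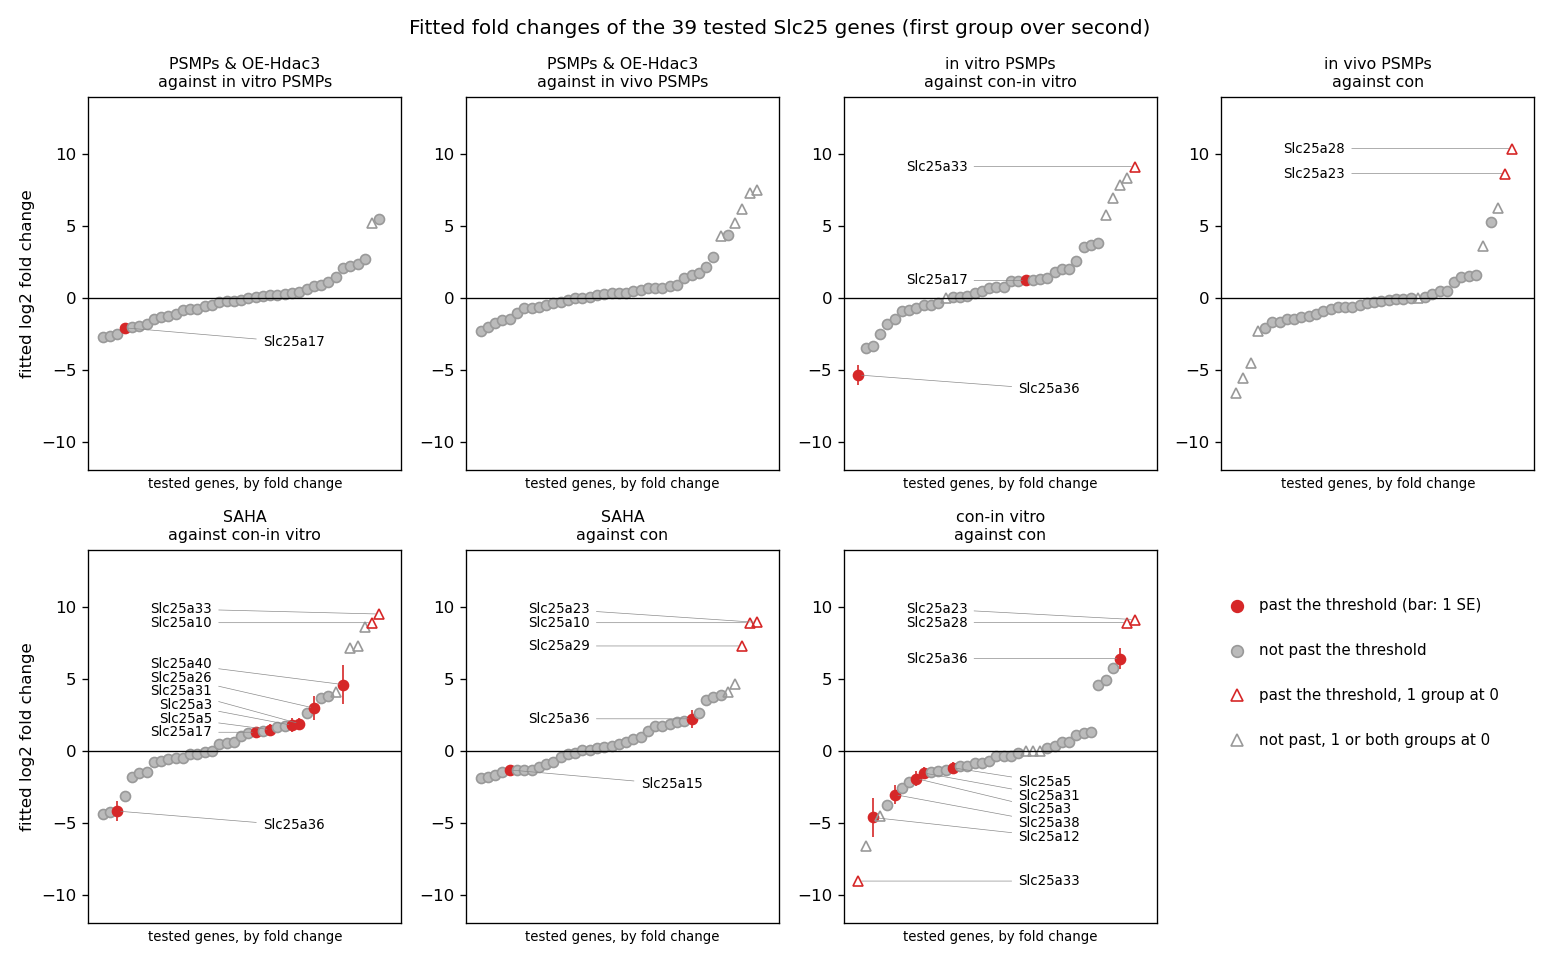
Fitted log2 fold change of each of the 39 tested Slc25 genes in 7 comparisons, ordered within each panel, the first group over the second, with 1 SE for members past the threshold. Triangles mark members without a count in a whole group, whose fitted value depends on the prior count and is no measured size, and Slc25a36 is the member farthest from 0 with counts in both groups where con-in vitro is compared with in vitro PSMPs or con.

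Slc25a36 and Slc25a33 import pyrimidine nucleotides into the mitochondrial matrix, where they are used for mitochondrial DNA and RNA. Slc25a36 (ENSMUSG00000032449.13, mm10 chr9:97074961-97111157, minus strand) was at 26.5 and 16.01 CPM in PSMPs & OE-Hdac3, 15.3 and 16.6 CPM in in vitro PSMPs, 7.22 CPM in in vivo PSMPs, 42.9 and 29.0 CPM under SAHA, 522 and 793 CPM in con-in vitro and 12.2 and 3.12 CPM in con. The con-in vitro libraries, with 1758 and 2904 reads of the gene, stood far above all others and overlapped with none. Slc25a36 was 41.2-fold lower in in vitro PSMPs relative to con-in vitro (log2 fold change -5.37 ± 0.71, adjusted p = 0.00146), 18.3-fold lower in SAHA than in con-in vitro (log2 fold change -4.19 ± 0.67, adjusted p = 0.00316) and higher in con-in vitro than in con (log2 fold change 6.42 ± 0.74, adjusted p = 0.000640). Library totals moved these log2 fold changes to -4.39 for in vitro PSMPs, -3.49 for SAHA and 5.63 for con-in vitro against con, and the last was 7.71 without con replicate 1 and 5.56 without con replicate 2. The first and the last of these calls held in every alternative run, with adjusted p of 4.25e-13 to 0.0264 and of 1.07e-18 to 0.0162. The call of SAHA against con-in vitro was lost only without SAHA replicate 2 (adjusted p = 0.0542, and 3.37e-08 to 0.0542 over all alternatives run).

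Slc25a36 was also higher in SAHA than in con (log2 fold change 2.23 ± 0.62, adjusted p = 0.0289). That value moved to 3.53 without con replicate 1, and the call was lost without con replicate 2 (log2 fold change 1.37, adjusted p = 0.0546), without SAHA replicate 1 (0.136) and without SAHA replicate 2 (0.0797), within adjusted p of 0.00382 to 0.214 over all alternatives run. Slc25a33 (ENSMUSG00000028982.9, mm10 chr4:149744036-149774277, minus strand) was ordered otherwise. It had no read in either con-in vitro library, which by counting error alone allows up to 0.427 CPM over the group, and 7.29 and 6.27 CPM in PSMPs & OE-Hdac3, 4.30 and 3.39 CPM in in vitro PSMPs, 1.55 CPM in in vivo PSMPs, 6.34 and 3.75 CPM under SAHA and 6.57 and 0.773 CPM in con. It was at least 9.01-fold higher in in vitro PSMPs relative to con-in vitro (adjusted p = 0.0461), at least 11.8-fold higher in SAHA than in con-in vitro (adjusted p = 0.0335) and at least 8.60-fold lower in con-in vitro than con (adjusted p = 0.0338). Leaving out any 1 of the 4 libraries ended the first (adjusted p of 0.0933 to 0.151) and the second (0.0747 to 0.129), and leaving out either con-in vitro library or con replicate 1 ended the third (0.00353 to 0.0913 over its 4 leave-outs). The antisense gene Gm13068 covers 14.9% of the exonic length of Slc25a33 and had 0 counts.

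**Figure D5:**
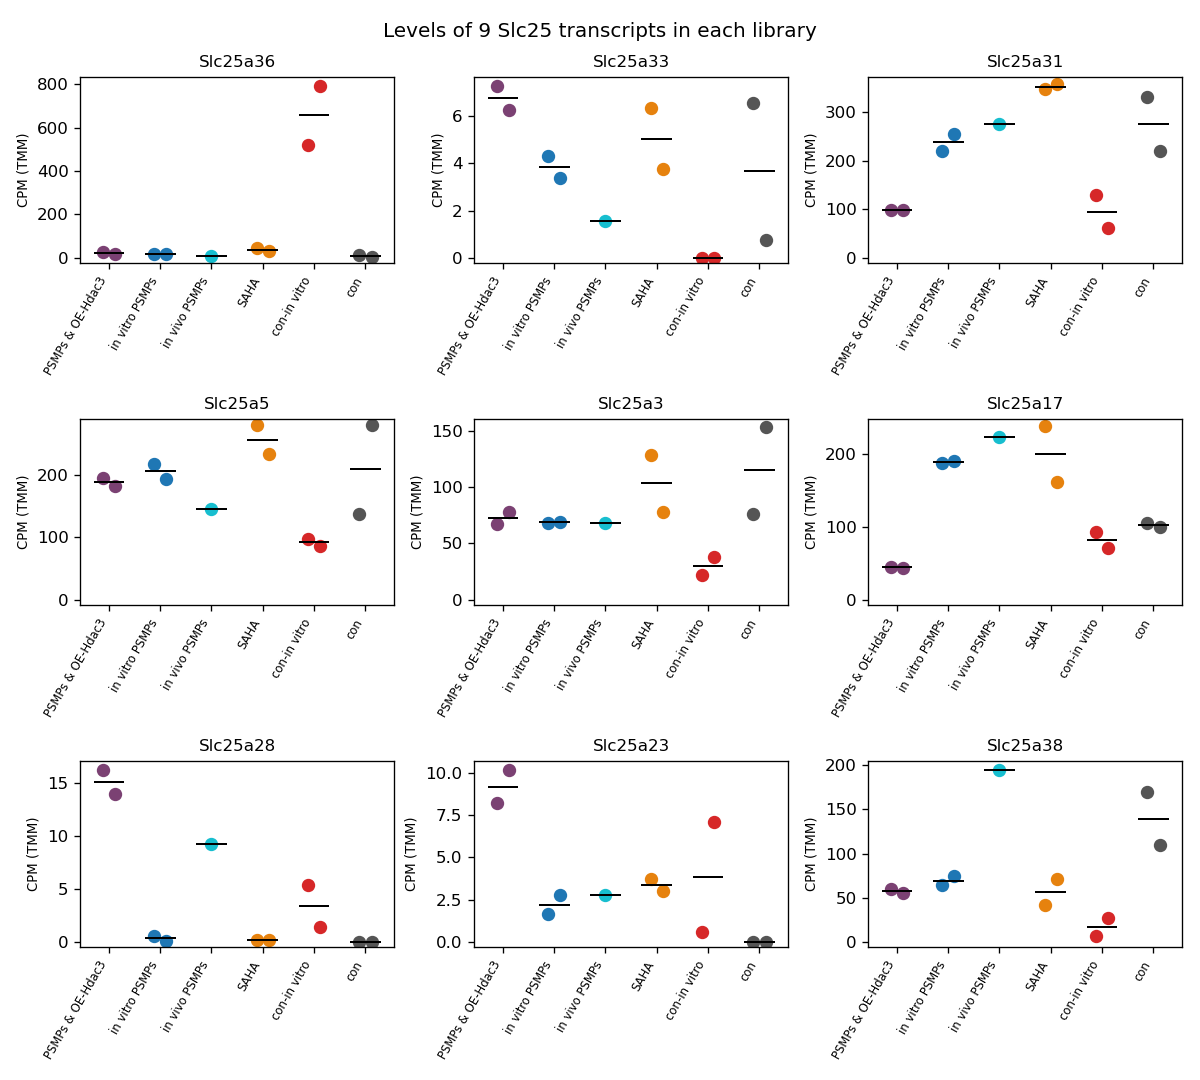
CPM (TMM) of 9 Slc25 members, each panel on its own linear axis from 0, with 1 point per library and a line at the group mean (in vivo PSMPs is 1 library). Con-in vitro holds the highest points for Slc25a36 (522 and 793 CPM) and the lowest for Slc25a33 (0 and 0 CPM), Slc25a5, Slc25a3 and Slc25a38. On the TMM scale, but not by library totals, PSMPs & OE-Hdac3 holds the lowest for Slc25a17 (45.6 and 43.7 CPM).

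The promoters of these carriers are shown because their transcripts lay at opposite ends of the con-in vitro libraries. They are RefSeq windows of build GRCm38.p6 on the minus strand, 250 bases before to 50 bases after the annotated start, at chr9:97110992-97111291 for Slc25a36 and chr4:149774218-149774517 for Slc25a33, written 5′ to 3′ with matches to the searched motifs in capitals.
Slc25a36: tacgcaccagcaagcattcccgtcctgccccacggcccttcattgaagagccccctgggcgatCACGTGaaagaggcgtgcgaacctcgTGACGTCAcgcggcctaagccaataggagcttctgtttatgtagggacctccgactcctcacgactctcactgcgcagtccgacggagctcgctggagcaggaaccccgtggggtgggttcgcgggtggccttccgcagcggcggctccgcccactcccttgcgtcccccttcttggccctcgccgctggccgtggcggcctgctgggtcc
Slc25a33: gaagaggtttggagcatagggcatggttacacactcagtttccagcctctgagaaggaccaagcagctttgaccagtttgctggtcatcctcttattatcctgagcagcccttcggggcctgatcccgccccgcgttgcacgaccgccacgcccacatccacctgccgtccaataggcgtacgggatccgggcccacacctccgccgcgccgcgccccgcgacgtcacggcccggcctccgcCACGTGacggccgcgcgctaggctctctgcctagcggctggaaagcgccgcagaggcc
Capitals mark the E-box CACGTG in both and the cyclic AMP response element TGACGTCA in Slc25a36. The windows hold 29 and 30 CpG dinucleotides. Promoter windows were found for 36 of the 47 members, 46 windows in all with a median of 15 CpG, against 7 over the 32851 windows of the table. On either strand, CACGTG was in 8 of the 46 windows (17.4%, against 7.15% of all windows) and TGACGTCA in 2 (4.35%, against 1.79%). The windows compared were not matched for CpG, which both motifs contain, and several windows of a gene were counted separately. The factors that bind these motifs were not measured.

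The ADP/ATP carriers exchange matrix ATP for cytosolic ADP, and Slc25a3 brings in the phosphate that ATP synthesis consumes. Slc25a5 (ENSMUSG00000016319.3, mm10 chrX:36795651-36798807, plus strand) was at 195 and 181 CPM in PSMPs & OE-Hdac3, 217 and 194 CPM in in vitro PSMPs, 146 CPM in in vivo PSMPs, 279 and 233 CPM under SAHA, 97.6 and 86.6 CPM in con-in vitro and 138 and 279 CPM in con. Slc25a31 (ENSMUSG00000069041.8, mm10 chr3:40708855-40726096, plus strand) was at 99.4 and 98.9 CPM in PSMPs & OE-Hdac3, 220.5 and 255 CPM in in vitro PSMPs, 275 CPM in in vivo PSMPs, 348 and 358 CPM under SAHA, 129 and 60.7 CPM in con-in vitro and 331 and 221 CPM in con. Con-in vitro held the 2 lowest levels of Slc25a5, and on the TMM scale both PSMPs & OE-Hdac3 levels of Slc25a31 lay between its con-in vitro levels. By library totals the PSMPs & OE-Hdac3 levels of Slc25a31 lay above both con-in vitro levels. The reads were 1527 of 9.81 M and 1088 of 7.03 M, against 435 of 6.22 M and 222 of 6.40 M in con-in vitro. Slc25a3 (ENSMUSG00000061904.12, mm10 chr10:91116574-91124059, minus strand) was at 67.1 and 77.8 CPM in PSMPs & OE-Hdac3, 68.3 and 68.8 CPM in in vitro PSMPs, 68.4 CPM in in vivo PSMPs, 129 and 77.9 CPM under SAHA, 22.3 and 38.0 CPM in con-in vitro and 76.0 and 154 CPM in con.

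In SAHA against con, none of the 4 members of this list passed. The log2 fold changes there were 0.35 ± 0.39 for Slc25a31 (adjusted p = 0.553), -0.15 ± 0.47 for Slc25a3 (0.854) and 0.30 ± 0.37 for Slc25a5 (0.603). In SAHA against con-in vitro, the other candidate control, 3 of the 4 were higher, where 11.7% of all tested genes were. Slc25a4 did not pass there (log2 fold change 1.64 ± 1.64, adjusted p = 0.492). Slc25a31 was 3.72-fold higher (log2 fold change 1.89 ± 0.41, adjusted p = 0.0136), Slc25a3 was 3.43-fold higher (log2 fold change 1.78 ± 0.49, adjusted p = 0.0357) and Slc25a5 was 2.78-fold higher (log2 fold change 1.47 ± 0.38, adjusted p = 0.0273). Leaving out a SAHA library ended each of these calls, with adjusted p of 0.0694 and 0.0781 for Slc25a31, 0.203 and 0.0801 for Slc25a3 and 0.143 and 0.0968 for Slc25a5. Leaving out con-in vitro replicate 1 ended those of Slc25a3 (0.119) and Slc25a5 (0.0657), and leaving out con-in vitro replicate 2 that of Slc25a5 (0.0983). Library totals moved the log2 fold changes to 2.62 for Slc25a31, 2.48 for Slc25a3 and 2.19 for Slc25a5, and that of Slc25a31 was 2.55 without con-in vitro replicate 1. Over all alternatives run, adjusted p was 0.000411 to 0.0781 for Slc25a31, 0.00311 to 0.203 for Slc25a3 and 0.00140 to 0.143 for Slc25a5.

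In con-in vitro against con 3 of the 4 were lower, where 10.5% of all tested genes were, namely Slc25a3 (log2 fold change -1.93 ± 0.49, adjusted p = 0.0232), Slc25a31 (log2 fold change -1.54 ± 0.40, adjusted p = 0.0261) and Slc25a5 (log2 fold change -1.18 ± 0.38, adjusted p = 0.0481). The call of Slc25a3 was lost at an adjusted p of 0.0910 when con-in vitro replicate 1 was left out, and that of Slc25a31 without con-in vitro replicate 2 (0.0785) or con replicate 1 (0.0648). Slc25a5 lost its call without either con-in vitro library (0.107 and 0.164) and without con replicate 2, where the log2 fold change was -0.76 (adjusted p = 0.138). Library totals moved the log2 fold changes to -2.08 for Slc25a5, -2.39 for Slc25a31 and -2.82 for Slc25a3, and that of Slc25a31 was -2.20 without con-in vitro replicate 1. Over all alternatives run, adjusted p was 0.00270 to 0.130 for Slc25a3, 0.00193 to 0.139 for Slc25a31 and 0.00696 to 0.201 for Slc25a5. In in vitro PSMPs against con-in vitro none of the 3 passed, with log2 fold changes of 1.33 ± 0.40 for Slc25a31 (adjusted p = 0.0559), 1.19 ± 0.48 for Slc25a3 (0.126) and 1.16 ± 0.38 for Slc25a5 (0.0684). Slc25a31 in PSMPs & OE-Hdac3 against in vitro PSMPs had a log2 fold change of -1.26 ± 0.40 (adjusted p = 0.118), with no overlap of the libraries. Slc25a4 passed in no comparison and was at 61.1 and 57.5 CPM in PSMPs & OE-Hdac3, 35.7 and 20.5 CPM in in vitro PSMPs, 40.8 CPM in in vivo PSMPs, 20.9 and 22.6 CPM under SAHA, 13.9 and 0 CPM in con-in vitro and 0.903 and 27.4 CPM in con. The pseudogene Slc25a5-ps had 0 to 5 counts per library.

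The promoters of the ADP/ATP carriers with the highest levels are shown for comparison, as RefSeq windows of GRCm38.p6 on the plus strand at chr3:40708621-40708920 for Slc25a31 and chrX:36795347-36795646 for Slc25a5, built and marked as above.
Slc25a31: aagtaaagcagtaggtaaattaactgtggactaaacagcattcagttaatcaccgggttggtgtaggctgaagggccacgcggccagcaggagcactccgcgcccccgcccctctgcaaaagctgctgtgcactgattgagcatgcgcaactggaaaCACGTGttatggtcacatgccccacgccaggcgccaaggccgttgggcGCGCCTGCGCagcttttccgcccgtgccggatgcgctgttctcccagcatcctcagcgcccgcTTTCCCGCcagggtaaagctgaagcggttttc
Slc25a5: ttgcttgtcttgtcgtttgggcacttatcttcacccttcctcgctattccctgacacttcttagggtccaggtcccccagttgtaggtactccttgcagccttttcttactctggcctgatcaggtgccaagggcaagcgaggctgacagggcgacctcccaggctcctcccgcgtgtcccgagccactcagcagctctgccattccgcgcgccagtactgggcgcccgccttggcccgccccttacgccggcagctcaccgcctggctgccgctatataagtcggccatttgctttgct
In Slc25a31 the capitals mark, in order, the E-box CACGTG, the NRF1 core and the E2F site TTTCCCGC. The window of Slc25a5 held none of the 4 motifs. Over the windows of the family, the NRF1 core was in 2 of 46 (4.35%, against 4.60% of all windows), those of Slc25a3 and Slc25a31, and the E2F site in 1 of 46 (2.17%, against 1.07%). The windows hold 22 CpG in Slc25a31 and 18 in Slc25a5.

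Slc25a17 carries coenzyme A, FAD and NAD across the peroxisomal membrane and so acts outside mitochondria. It (ENSMUSG00000022404.8, mm10 chr15:81318911-81360812, minus strand) was at 45.6 and 43.7 CPM in PSMPs & OE-Hdac3, 189 and 190.5 CPM in in vitro PSMPs, 224 CPM in in vivo PSMPs, 239 and 162 CPM under SAHA, 92.9 and 70.5 CPM in con-in vitro and 106 and 99.5 CPM in con. All exposed and SAHA libraries other than PSMPs & OE-Hdac3 lay above all control libraries, and on the TMM scale PSMPs & OE-Hdac3 lay below them. By library totals PSMPs & OE-Hdac3 lay above con-in vitro and below con. Its reads were 701 of 9.81 M and 481 of 7.03 M, against 313 of 6.22 M and 258 of 6.40 M in con-in vitro. Slc25a17 was lower in PSMPs & OE-Hdac3 than in in vitro PSMPs (log2 fold change -2.08 ± 0.34, adjusted p = 0.0151), with adjusted p of 0.0567 to 0.210 when 1 library was left out and 2.47e-07 to 0.210 over all alternatives run. It was 2.32-fold higher in in vitro PSMPs relative to con-in vitro (log2 fold change 1.21 ± 0.34, adjusted p = 0.0409) and 2.45-fold higher in SAHA than in con-in vitro (log2 fold change 1.29 ± 0.34, adjusted p = 0.0284). The call of in vitro PSMPs was lost without either in vitro PSMPs library (adjusted p = 0.135 and 0.140) or con-in vitro replicate 2 (0.121), and that of SAHA without either SAHA library (0.185 and 0.0621) or con-in vitro replicate 2 (0.0908). Over all alternatives run, adjusted p was 0.00202 to 0.140 for in vitro PSMPs and 0.00140 to 0.185 for SAHA, and library totals moved the log2 fold changes to 2.21 and 2.01. For PSMPs & OE-Hdac3 against in vitro PSMPs the log2 fold change was -2.20 to -1.58 over all alternatives run. Against con, Slc25a17 did not pass in in vivo PSMPs (log2 fold change 1.13 ± 0.39, adjusted p = 0.0997) or in SAHA (0.97 ± 0.33, adjusted p = 0.0598).

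Further carriers of cofactors that passed in no comparison were Slc25a16, Slc25a32, Slc25a42 and Slc25a51. Slc25a32, which carries folate or FAD, was at 20.4 and 20.9 CPM in PSMPs & OE-Hdac3, 85.9 CPM in in vivo PSMPs and, in con, 91.2 and 50.3 CPM. Its PSMPs & OE-Hdac3 levels were the lowest on the TMM scale, but not by library totals. Slc25a51, the NAD carrier, was at 5.93 and 29.5 CPM in con-in vitro and 19.0 and 69.5 CPM in con. Slc25a42, which carries coenzyme A, did not exceed 0.516 CPM in any library.

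Among the 6 carriers of amino acids and S-adenosylmethionine, Slc25a15 exchanges ornithine and citrulline for the urea cycle and polyamine supply. It (ENSMUSG00000031482.9, mm10 chr8:22375551-22398597, minus strand) was at 192 and 198 CPM in PSMPs & OE-Hdac3, 169 and 222 CPM in in vitro PSMPs, 325 CPM in in vivo PSMPs, 152 and 244 CPM under SAHA, 335 and 221 CPM in con-in vitro and 444 and 551 CPM in con. The con libraries were the highest of all. Slc25a15 was 2.51-fold lower in SAHA than in con (log2 fold change -1.33 ± 0.36, adjusted p = 0.0279), a call lost without SAHA replicate 1 (adjusted p = 0.180) or replicate 2 (0.0698), within 0.0105 to 0.180 over all alternatives run.

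Slc25a38 brings glycine into mitochondria for heme synthesis. It (mm10 chr9:120110374-120124504, plus strand) was at 59.8 and 54.9 CPM in PSMPs & OE-Hdac3, 63.8 and 74.6 CPM in in vitro PSMPs, 195 CPM in in vivo PSMPs, 41.1 and 70.6 CPM under SAHA, 6.53 and 27.3 CPM in con-in vitro and 169.8 and 109.6 CPM in con. In vivo PSMPs and con held the 3 highest libraries and con-in vitro the 2 lowest. It was lower in con-in vitro than con (log2 fold change -3.04 ± 0.66, adjusted p = 0.0114), and this call held without any 1 of the 4 libraries (adjusted p of 0.00320 to 0.0190) and was lost where only those groups were fitted (0.0933, the highest of the alternatives run, the lowest being 0.000138). Its log2 fold change was -2.37 without con-in vitro replicate 1, -4.43 without con-in vitro replicate 2 and -3.86 with library totals. In in vitro PSMPs against con-in vitro it was 2.03 ± 0.63 (adjusted p = 0.0611). Slc25a26 imports S-adenosylmethionine, the methyl donor, and was at 36.4 and 32.3 CPM in PSMPs & OE-Hdac3, 95.7 and 79.0 CPM in in vitro PSMPs, 56.0 CPM in in vivo PSMPs, 114 and 116 CPM under SAHA, 2.97 and 26.2 CPM in con-in vitro and 91.2 and 40.5 CPM in con.

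Slc25a26 was 7.88-fold higher in SAHA than in con-in vitro (log2 fold change 2.98 ± 0.85, adjusted p = 0.0400). The log2 fold change was 2.15 without con-in vitro replicate 1, 5.29 without con-in vitro replicate 2 and 3.66 with library totals, and the call was lost without SAHA replicate 1 (adjusted p = 0.138) or replicate 2 (0.143), within 0.00284 to 0.143 over all alternatives run. The gene Lrig1, with 17408 counts in all, overlaps 3.00% of its exonic length on the other strand. Slc25a29, a carrier of basic amino acids, had no read in con-in vitro or con and was at 2.21 and 1.18 CPM in PSMPs & OE-Hdac3, 0.730 and 0 CPM in in vitro PSMPs, 0.0773 CPM in in vivo PSMPs and 1.58 and 0.569 CPM under SAHA. It was at least 24.3-fold higher in SAHA than in con (adjusted p = 0.0434), a call lost without either SAHA library (0.157 and 0.109) or con replicate 2 (0.0668), within 0.0237 to 0.157 over all alternatives run. Slc25a44, which carries branched-chain amino acids, passed in no comparison and lay between 16.05 and 57.7 CPM, and Slc25a2 had at most 0.0808 CPM.

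Of the 8 carriers of citrate, dicarboxylates, 2-oxoacids, aspartate and glutamate, Slc25a12 (aralar) and Slc25a13 (citrin) run the aspartate side of the malate-aspartate shuttle. Slc25a12 (mm10 chr2:71271063-71367749, minus strand) was at 9.76 and 9.91 CPM in PSMPs & OE-Hdac3, 7.30 and 8.97 CPM in in vitro PSMPs, 5.31 CPM in in vivo PSMPs, 5.83 and 9.55 CPM under SAHA, 1.19 and 0 CPM in con-in vitro and 14.97 and 14.4 CPM in con. The con-in vitro libraries were the lowest and the con libraries the highest. It was lower in con-in vitro than con (log2 fold change -4.63 ± 1.33, adjusted p = 0.0336), and this call held without any 1 of the 4 libraries (adjusted p of 0.00680 to 0.0403, within 6.57e-06 to 0.280 over all alternatives run). The size rests on con-in vitro replicate 1, without which the group is at 0 and the fitted log2 value was -11.17. It was -3.63 without con-in vitro replicate 2 and -5.50 with library totals. Slc25a13 passed in no comparison and was at 12.04 and 13.3 CPM in PSMPs & OE-Hdac3, 32.7 and 70.8 CPM in in vitro PSMPs, 15.5 CPM in in vivo PSMPs, 78.3 and 80.1 CPM under SAHA, 45.7 and 15.6 CPM in con-in vitro and 18.4 and 29.7 CPM in con.

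Slc25a10, the dicarboxylate carrier that exchanges malate and succinate for phosphate (mm10 chr11:120491840-120499187, plus strand), had no read in in vivo PSMPs, con-in vitro or con and was at 1.24 and 1.27 CPM in PSMPs & OE-Hdac3, 2.19 and 2.26 CPM in in vitro PSMPs and at 2.04 and 4.61 CPM in SAHA. It was at least 7.78-fold higher in SAHA than in con-in vitro (adjusted p = 0.0344) and at least 74.8-fold higher in SAHA than in con (adjusted p = 0.0126). The first call was lost without any 1 of its 4 libraries (adjusted p of 0.0610 to 0.144, within 0.0113 to 0.144 over all alternatives run), and the second without SAHA replicate 1 (0.0694) or replicate 2 (0.0668), within 3.75e-05 to 0.0694. The other members of the list passed in no comparison. Slc25a1, the citrate carrier, was between 11.3 and 30.6 CPM in con-in vitro and between 14.1 and 31.3 CPM in the exposed and SAHA libraries, all inside its range in con given above. Slc25a11, the 2-oxoglutarate and malate carrier, was at 37.4 and 5.54 CPM in con and 5.86 to 17.7 CPM elsewhere, and Slc25a22, a glutamate carrier, lay between 3.86 and 10.1 CPM in all libraries. Slc25a18, the other glutamate carrier, and Slc25a21, the oxodicarboxylate carrier, did not exceed 0.781 and 3.01 CPM. Slc25a20, which brings acylcarnitines to fatty acid oxidation, passed in no comparison, with 12.04 and 10.6 CPM in PSMPs & OE-Hdac3, 1.13 to 5.998 CPM in in vitro PSMPs, in vivo PSMPs and SAHA, 21.1 and 2.46 CPM in con-in vitro and 0.0695 and 9.30 CPM in con.

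Slc25a28 and Slc25a23 had no read in either con library, at 30.7 M and 35.6 M counts, which by counting error alone allows up to 0.0444 CPM over the group. The con replicates differed above 4-fold in 28.2% of tested members, and the folds given here as at least a value do not cover such differences. Slc25a28 (ENSMUSG00000040414.8, mm10 chr19:43663801-43674881, minus strand) was at 16.3 and 14 CPM in PSMPs & OE-Hdac3, 0.567 and 0.0808 CPM in in vitro PSMPs, 9.23 CPM in in vivo PSMPs, 0.170 and 0.171 CPM under SAHA and 5.34 and 1.37 CPM in con-in vitro. Slc25a23 (ENSMUSG00000046329.14, mm10 chr17:57043711-57059863, minus strand) was at 8.20 and 10.2 CPM in PSMPs & OE-Hdac3, 1.62 and 2.75 CPM in in vitro PSMPs, 2.76 CPM in in vivo PSMPs, 3.73 and 3.01 CPM under SAHA and 0.593 and 7.10 CPM in con-in vitro. PSMPs & OE-Hdac3 held the highest levels of both, and con the lowest. In in vivo PSMPs, Slc25a28 was at least 208-fold higher than in con (adjusted p = 0.0463) and Slc25a23 at least 62.2-fold higher (adjusted p = 0.0467). Adjusted p was 2.98e-06 to 0.618 for Slc25a28 and 0.000241 to 0.618 for Slc25a23 over all alternatives run. Both calls were lost when either in vivo PSMPs column stood alone, and also when both were kept and the low-count filter was applied after merging. In each of these fits the filter counted in vivo PSMPs as 1 library, which loosens it. Of 15 tested cumulus and granulosa cell markers 2, Inha and Vcan, were higher in in vivo PSMPs as well, with 15 of 20 at 0 in each con library and 4 of 20 in in vivo PSMPs, and Inha, an inhibin subunit gene, at 59.4 CPM against 0 and 0. Their part in the result was not tested.

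Both genes were also higher in con-in vitro than in con, Slc25a23 at least 86.7-fold (adjusted p = 0.0107) and Slc25a28 at least 75.6-fold (adjusted p = 0.00952), from 28 reads of Slc25a23 and 23 reads of Slc25a28 over both con-in vitro libraries. The call of Slc25a23 held in the 12 alternatives that tested it (2.39e-06 to 0.0226). It was not tested in the fit to those groups alone, where it did not pass the low-count filter. The call of Slc25a28 held in every alternative but that fit (0.130, the lowest being 2.57e-06). Of the cumulus and granulosa cell markers, Gja1, a gap junction gene, was at 48.7 and 2.19 CPM in con-in vitro and 0 and 0 CPM in con, while Cyp11a1, a steroidogenic enzyme gene, was at 0 and 0 CPM in con-in vitro and 7.64 and 4.59 CPM in con. Their part was not tested. Slc25a23 was at least 76.0-fold higher in SAHA than in con (adjusted p = 0.0144), a call lost without SAHA replicate 1 (0.0695) or replicate 2 (0.0668), within 4.44e-06 to 0.0695 over all alternatives run. Slc25a28 in PSMPs & OE-Hdac3 against in vitro PSMPs had a log2 fold change of 5.52 ± 1.44 (adjusted p = 0.0744), with both PSMPs & OE-Hdac3 libraries above both in vitro PSMPs libraries. The other calcium-regulated ATP-Mg carriers did not pass. Slc25a25 was at 10.5 and 7.73 CPM in PSMPs & OE-Hdac3, 1.19 to 5.62 CPM in in vitro PSMPs, in vivo PSMPs and SAHA, 0 and 12.6 CPM in con-in vitro and 7.09 and 3.86 CPM in con. Slc25a24 had no read in in vivo PSMPs and was at 20.8 and 0 CPM in con-in vitro, so that its group mean there came from replicate 1, and at 0 to 4.19 CPM in all other libraries. Slc25a37, mitoferrin 1, did not exceed 3.86 CPM.

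Slc25a39 and Slc25a40 bring glutathione, the main thiol antioxidant, into mitochondria. Slc25a40 (mm10 chr5:8422850-8454797, plus strand) was at 3.77 and 6.64 CPM in PSMPs & OE-Hdac3, 16.4 and 24.8 CPM in in vitro PSMPs, 2.99 CPM in in vivo PSMPs, 34.5 and 44.9 CPM under SAHA, 3.26 and 0 CPM in con-in vitro and 12.7 and 6.49 CPM in con. It was 24.5-fold higher in SAHA than in con-in vitro (log2 fold change 4.61 ± 1.38, adjusted p = 0.0461). Only con-in vitro replicate 1 held reads in that group, and the fitted log2 value was 12.61 without it, 3.61 without con-in vitro replicate 2 and 5.35 with library totals. The call was lost without SAHA replicate 1 (adjusted p = 0.150) or replicate 2 (0.178), within 3.58e-05 to 0.178 over all alternatives run. Slc25a39 passed in no comparison and was at 13.3 and 8.09 CPM in PSMPs & OE-Hdac3, 55.0 and 67.7 CPM in in vitro PSMPs, 31.7 CPM in in vivo PSMPs, 58.5 and 83.8 CPM under SAHA, 10.4 and 0 CPM in con-in vitro and 82.9 and 56.5 CPM in con. The PSMPs & OE-Hdac3 and con-in vitro libraries held the 4 lowest levels of Slc25a39, and the log2 fold change of Slc25a39 in PSMPs & OE-Hdac3 against in vitro PSMPs was -2.52 ± 1.17 (adjusted p = 0.281).

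The remaining members passed in no comparison. Slc25a14 and Slc25a30, relatives of the uncoupling proteins, lay between 3.83 and 83.6 CPM and between 0 and 38.2 CPM, and the extremes of Slc25a14 were single control libraries (30.9 and 3.83 CPM in con-in vitro and 83.6 and 10.1 CPM in con). Slc25a48 was at 110.3 and 79.4 CPM in PSMPs & OE-Hdac3, 71.7 and 99.2 CPM in in vitro PSMPs, 57.6 CPM in in vivo PSMPs, 58.7 and 82.7 CPM under SAHA, 40.7 and 60.4 CPM in con-in vitro and 7.75 and 34.0 CPM in con, the lowest values being those of con. Slc25a35, whose substrate is not settled, was at 0 and 1.75 CPM in con and 10.6 to 34.7 CPM in all other libraries. In in vivo PSMPs against con, its log2 fold change was 5.28 ± 1.67 (adjusted p = 0.0812). The gene Rangrf, with 0 counts, covers 31.3% of its exonic length on the other strand. Slc25a53 and Slc25a54 did not exceed 4.59 and 1.08 CPM, and Slc25a34 and Slc25a47 did not exceed 0.0909 and 0.162 CPM.

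Carriers enter the inner membrane through TIM22 with the help of small TIM chaperones and the outer membrane receptors, and 12 genes of this route were followed. In in vitro PSMPs against con-in vitro 3 of 12 were higher and 1 was lower (8.57% and 6.78% of all tested genes). In SAHA against con-in vitro 3 were higher and 1 lower (11.7% and 8.14% of all tested genes), and in con-in vitro against con 1 was higher and 3 lower (14.7% and 10.5%). In PSMPs & OE-Hdac3 against in vitro PSMPs 1 was lower (2.98% of all tested genes), while none passed in in vivo PSMPs against con, in SAHA against con or in PSMPs & OE-Hdac3 against in vivo PSMPs. Tomm20, an import receptor, was at 10.7 and 3.15 CPM in in vitro PSMPs and at 2.09 and 5.91 CPM in SAHA, against 0 and 0.273 CPM in con-in vitro, where it had 1 read. The ratio was 48.6 (95% counting interval 8.61 to 1932, adjusted p = 0.0316) in in vitro PSMPs and 28.1 (4.96 to 1118, adjusted p = 0.0450) in SAHA. Agk, a TIM22 subunit with lipid kinase activity, was higher in in vitro PSMPs relative to con-in vitro (log2 fold change 1.99 ± 0.47, adjusted p = 0.0215) and in SAHA than in con-in vitro (log2 fold change 2.30 ± 0.47, adjusted p = 0.0104), and lower in PSMPs & OE-Hdac3 than in in vitro PSMPs (log2 fold change -2.45 ± 0.47, adjusted p = 0.0221). Timm8b was higher in in vitro PSMPs relative to con-in vitro (log2 fold change 2.69 ± 0.39, adjusted p = 0.00217) and in SAHA than in con-in vitro (log2 fold change 2.56 ± 0.39, adjusted p = 0.00239), while Timm10b, a further small TIM protein, was lower in both (log2 fold change -7.16 ± 1.09, adjusted p = 0.00288 in in vitro PSMPs and log2 fold change -8.33 ± 1.15, adjusted p = 0.00148 in SAHA). In con-in vitro against con, Tomm20 (118-fold lower, 95% counting interval 21.1 to 4666), Agk and Timm8b were lower and Timm10b was higher (log2 fold change 8.39 ± 1.15, adjusted p = 0.00143). These comparisons share the con-in vitro libraries.

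Of 13 other mitochondrial metabolite channels and carriers, 2 were higher and 1 lower both in in vitro PSMPs and in SAHA against con-in vitro, 3 were higher in SAHA against con, 2 were higher and 2 lower in con-in vitro against con, and none passed in PSMPs & OE-Hdac3. Of all tested genes, 8.57% were higher and 6.78% lower in in vitro PSMPs against con-in vitro, 11.7% and 8.14% in SAHA against con-in vitro, and 14.7% and 10.5% in con-in vitro against con. The 3 of 13 in SAHA against con stand beside 20.2% of all tested genes. Mpc1, a subunit of the mitochondrial pyruvate carrier, was at 20.3 and 11.3 CPM in in vitro PSMPs and at 25.01 and 20.3 CPM in SAHA, with no read in con-in vitro, and so was at least 37.0-fold higher in in vitro PSMPs (adjusted p = 0.00397) and at least 53.1-fold higher in SAHA (adjusted p = 0.00268). It was at least 38.8-fold lower in con-in vitro than con (adjusted p = 0.00310), where it was at 21.1 and 12.03 CPM. Vdac2, an outer membrane channel for metabolites, was higher in in vitro PSMPs relative to con-in vitro (log2 fold change 2.25 ± 0.38, adjusted p = 0.00461), and the sideroflexin gene Sfxn5 was lower (log2 fold change -3.49 ± 0.83, adjusted p = 0.0227). Both passed in the same direction in SAHA against con-in vitro, Vdac2 with log2 fold change 2.71 ± 0.39, adjusted p = 0.00165 and Sfxn5 with log2 fold change -2.86 ± 0.81, adjusted p = 0.0380. Higher in SAHA than in con were Vdac2 (log2 fold change 2.23 ± 0.38, adjusted p = 0.00782), Sfxn1 (at least 14.1-fold, adjusted p = 0.01997) and Sfxn2 (at least 30.7-fold, adjusted p = 0.0212). In con-in vitro against con, Vdac1 was also lower (log2 fold change -1.79 ± 0.52, adjusted p = 0.0346), and Sfxn5 was higher (log2 fold change 2.88 ± 0.81, adjusted p = 0.0309) as was, from 4 reads, Sfxn2 (at least 12.3-fold, adjusted p = 0.0405). In in vivo PSMPs against con, Sfxn1, the mitochondrial serine carrier, was at least 62.7-fold higher (adjusted p = 0.0463) and was the only 1 of the 13 to pass, where 4.59% of all tested genes were higher. Among 5 carrier proteins of the family named otherwise, Ucp2, an uncoupling protein, was the only 1 to pass in any comparison: it was at 7.79 CPM in in vivo PSMPs, against 0 and 0.0515 CPM in con (ratio 263, 95% counting interval 72.2 to 2183, adjusted p = 0.0493). Calls on genes outside the Slc25 rule were not refitted without single libraries.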

How the data were processed

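Raw counts per gene for 55401 genes in 12 RNA columns, with gene lengths and coordinates, were deposited by the authors; counts were checked to be whole numbers. Build mm10 and, without roles, featureCounts, HISAT2, Picard, SAMtools, deepTools 3.5.1, Bowtie2 2.2.5, fastp 0.12.4 and DESeq2 are named per the submitters' processing notes. Strand and multimapping settings are not given in the sources used here, so reads of overlapping antisense genes and of near-identical copies could be shared. Per the labels, full-length cDNA was amplified with a kit for single cells and libraries were made with a transposase kit. The 12 CUT&Tag libraries were not analysed here. The values of 1 member are not reported here.

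Members and lists were chosen with earlier results of these data known. Genes were kept by edgeR's filter at 10 counts on the 12 columns (16736 genes, 39 of 47 members), and the in vivo PSMPs columns were then merged, leaving 11 libraries. The 8 members not kept were Slc25a2, Slc25a18, Slc25a27, Slc25a34, Slc25a41, Slc25a43, Slc25a45 and Slc25a47. One model with TMM factors (0.542 to 1.57) and 1 coefficient for each of 6 groups was fitted to all libraries (R 4.3.3, edgeR 4.0.16, limma 3.58.1), with robust quasi-likelihood F tests, 5 residual degrees of freedom and Benjamini-Hochberg adjustment over genes at 0.05. SE is the log2 fold change over the root of F. A fold against a group without reads is a bound computed from 3 counts over that group, and against 1 to 3 reads a ratio with a 95% counting interval. Bound and interval cover counting error only, and not the difference between replicates. The procedure was tested on simulated data, drawn with the same spread in every group. Such data cannot show how the fit behaves under the unequal replicate spread seen here. Alternatives were filters at 50 counts or none, library totals, DESeq2 1.42.0 (size factors and Wald test), 2 in vivo PSMPs libraries, fits to the groups compared, a replicate block and leaving out each column. The text names members past the threshold, the 10 of highest level per kilobase, members at 0 in a group with at least 10 CPM in another, role-list members by value, and past-threshold genes of the import and channel lists. Promoters were taken from a RefSeq table (GRCm38.p6).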

Additional observations from a re-analysis of the deposited data

Results flagged for a closer look

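The effect of PSMPs in culture was tested against the effect in the animal, as the difference of the log2 fold changes in 1 fit. Of 39 tested members, 3 differed, all with a lower effect in culture (6.4% of all tested genes were lower and 4.87% higher). For Slc25a36 the difference was -5.28 (SE 0.94, adjusted p = 0.0103), from 15.3 and 16.6 CPM in in vitro PSMPs, against 522 and 793 CPM for con-in vitro, and from 7.22 CPM in in vivo PSMPs, against 12.2 and 3.12 CPM in con. It was -6.57 without con replicate 1 and -4.51 without con replicate 2. The call was lost without in vitro PSMPs replicate 1 (0.0582) or replicate 2 (0.0613), and with only those groups fitted, within 3.82e-05 to 0.0873 over all alternatives run.

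For Slc25a28 the fitted difference was -13.73 (adjusted p = 0.0102) and for Slc25a23 it was -9.47 (adjusted p = 0.0325). Both sizes rest on con libraries without a read and depend on the prior count, so they are no measured folds. Slc25a28 was lost without in vitro PSMPs replicate 2 (0.0639) and Slc25a23 without in vitro PSMPs replicate 1 (0.140) or replicate 2 (0.138), both also with only those groups fitted, within 2.87e-08 to 0.148 and 0.000274 to 0.224 over all alternatives run. The contrast uses different controls for each route. Of the 12 oocyte markers 5 were higher in it, of 15 tested cumulus and granulosa cell markers Gja1 was lower, and their part was not tested. With library totals 1 member was higher and 3 were lower.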

How the results depend on the processing

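None of the 32 calls on members reversed in the 419 refits run for them: 316 kept the call and 103 lost it, and 3 calls held throughout (Slc25a36 in in vitro PSMPs against con-in vitro, and Slc25a36 and Slc25a23 in con-in vitro against con). For the Slc25a23 call the fit to con-in vitro and con alone is missing, since the gene did not pass the low-count filter there. The number of members called changed as follows where it moved by more than 1.5 times. For in vivo PSMPs against con (2 as reported) it was 0 with the filter applied after merging, an alternative added after the data were seen, 5 with the in vivo PSMPs columns as 2 libraries and 0 with only those groups fitted. With in vitro PSMPs against con-in vitro (3) it was 13 with library totals, 13 with DESeq2's Wald test and 10 with 2 in vivo PSMPs libraries. For SAHA against con (5) it was 3 with a filter at 50 counts, 12 with DESeq2, 10 with 2 in vivo PSMPs libraries and 0 with only those groups. For PSMPs & OE-Hdac3 against in vitro PSMPs (1) it was 4 with DESeq2, 2 with 2 in vivo PSMPs libraries and 12 with only those groups, and against in vivo PSMPs (0) it was 1 with no filter, 2 with DESeq2, 4 with 2 in vivo PSMPs libraries and 17 with only those groups. For con-in vitro against con (9) it was 14 with library totals and 1 with only those groups, and for the difference between the effects (3) 10 with DESeq2, 9 with 2 in vivo PSMPs libraries and 0 with only those groups. The causes of these shifts were not tested.

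Leaving out 1 library gave 0 to 8 for in vivo PSMPs against con, 1 to 6 with in vitro PSMPs against con-in vitro, 0 to 8 for SAHA against con-in vitro, 0 to 14 for SAHA against con, 0 to 0 for PSMPs & OE-Hdac3 against in vitro PSMPs and against in vivo PSMPs, 8 to 17 for con-in vitro against con and 0 to 13 for the difference between the effects. A group left with 1 library was assumed to vary like the others. The low-count filter was set anew in each leave-out and follows the size of the smallest group, so it was looser there. The part of the filter in these shifts was not tested.

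With the replicate number as a block the number called was 3 in in vitro PSMPs against con-in vitro, 6 for SAHA against con-in vitro, 4 for SAHA against con, 1 for PSMPs & OE-Hdac3 against in vitro PSMPs and 7 for con-in vitro against con, and 7 of the 27 calls so refitted were lost. Whether the numbers pair the samples is not in the labels. Same-numbered libraries of the groups compared correlated at -0.0598 to 0.0566 in their deviations from the group means, and over all pairs of groups at -0.288 to 0.0566. With 2 libraries per group, such values cannot exclude a shared source. No paired analysis was possible for in vivo PSMPs because its merged library carries no number. With 6.22 M and 6.40 M counts, con-in vitro limits what can be said of members below 0.427 CPM.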
